A study of Mus musculus with 155 samples.

Results

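The 10 genes described here encode the subunits of Polycomb repressive complex 2 (PRC2) and were taken by name from the 55471 genes of each count table. They are Ezh1, Ezh2, Eed, Suz12, Rbbp4, Rbbp7, Jarid2, Aebp2, Mtf2 and Phf19, and all 10 had enough counts to be tested in undifferentiated embryonic stem cells (ESCs), in retinoic acid (RA)-treated cells and in oligodendrocyte progenitor cell (OPC) cultures. The cells were KH2 mouse ESC clones that carried 1 extra, doxycycline (Dox)-inducible copy of histone H3.3 with a SNAP and HA tag, either wild type (WT-H3.3) or with methionine (H3.3K27M) or leucine (H3.3K27L) in place of lysine 27. The study asked which early effects of H3.3K27M on transcription do not go through PRC2, so the levels of the PRC2 genes themselves bear on each of its comparisons. ESCs of each line were sampled in 2 replicates at each of 4 times after Dox (at 4 h, 8 h, 24 h and 72 h), and so was the WT-H3.3 line under GSK343, which inhibits the PRC2 methyltransferases. This gave 32 ESC libraries, 8 from each line or treatment. RA-treated cells, kept without LIF and the inhibitors of the ESC medium and labelled neural progenitors, gave 6 libraries (3 lines at 24 and 72 h after Dox), and OPC cultures, grown through embryoid bodies with RA and purmorphamine, gave 4 (WT-H3.3 and H3.3K27M at 24 and 72 h). All cells of all groups carried a Dox-inducible copy, every line was hygromycin-selected, and the mutants therefore differ from the control in their clonal history as well as in the histone.

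PRC2 places methyl groups on lysine 27 of histone H3 and keeps developmental genes silent in ESCs. Its core holds 1 of 2 methyltransferases, EZH2 or EZH1, together with EED, which binds the methyl mark, SUZ12, the scaffold, and RBBP4 or RBBP7, which bind histones. Accessory subunits direct this core to chromatin: JARID2 and AEBP2 belong to one form of the complex, and the Polycomb-like proteins MTF2, PHF19 and PHF1 to the other. EZH2 is typical of dividing cells and EZH1 of cells that have stopped dividing. H3.3K27M is known as an inhibitor of PRC2, whereas H3.3K27L is not.

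Libraries held 68378 to 21161392 counts in ESCs, 2239137 to 22269533 in RA-treated cells and 7499258 to 12387113 in OPC cultures, and 2 of the ESC libraries held under 2000000. The lowest belonged to replicate 2 of H3.3K27L at 72 h, in which Aebp2 rested on 5 counts and Ezh1 on 3. Levels are given as CPM, a gene's counts scaled to 1000000 counts of an effective library size, which is the total without chromosome 8 times a TMM factor fitted over all 42 libraries (0.929 to 1.22 in ESCs, 0.973 to 1.05 with RA, 0.806 to 0.845 in OPC cultures). They thus carry the scaling between stages, and they carry no correction for gene length, so values of different genes are not compared. Differences are log2 fold changes from edgeR's quasi-likelihood test with their standard error (SE), and a gene passed if its p-value, adjusted by Benjamini-Hochberg over all genes tested, was under 0.05. In bulk RNA, fewer cells of a type and less RNA per cell cannot be told apart. Both QuantSeq 3′ and KAPA kits were used, and which library came from which kit is not given. A difference of kit between stages, or between the Dox times of RA-treated cells, thus cannot be told apart from the stage or the time. The labelled cell types were checked against marker lists. The 8 ESC markers summed to 3051 to 7533 CPM in ESCs and to 121 to 360 CPM in RA-treated cells. In RA-treated cells 8 neural progenitor markers summed to 104 to 575 CPM and 8 extraembryonic endoderm markers to 639 to 6982 CPM, against 29.9 to 103 and 38.9 to 164 CPM in ESCs, and the progenitor marker Fabp7 stayed under 1 CPM. OPC markers summed to 624.8 and 661 CPM in the WT-H3.3 and to 2033 and 2293 CPM in the H3.3K27M OPC cultures, but in the latter Sox10, Pdgfra and Gpr17, which define this lineage, were under 1 CPM.

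The promoters shown first are those of the 4 members that differed by over 2-fold between the OPC lines, Ezh2, Suz12 and Jarid2 (higher in H3.3K27M) and Ezh1 (lower). The sequences are from the RefSeq promoter table on GRCm38.p6, which is not the build of the counts, and run from 250 bases before to 50 bases after the annotated start. Capitals mark a word of the type bound by E2F factors, the regulators of cell cycle genes. Words searched on both strands were TTTCCCGC, TTTGGCGC, TTTCGCGC and TTTGCCGC. The stretches are chr6:47594981-47595280 (minus strand) for Ezh2, chr11:79992856-79993155 (plus strand) for Suz12, chr13:44730524-44730823 and chr13:44731021-44731320 (plus strand) for the 2 starts of Jarid2, and chr11:101226414-101226713 (minus strand) for Ezh1.
Ezh2: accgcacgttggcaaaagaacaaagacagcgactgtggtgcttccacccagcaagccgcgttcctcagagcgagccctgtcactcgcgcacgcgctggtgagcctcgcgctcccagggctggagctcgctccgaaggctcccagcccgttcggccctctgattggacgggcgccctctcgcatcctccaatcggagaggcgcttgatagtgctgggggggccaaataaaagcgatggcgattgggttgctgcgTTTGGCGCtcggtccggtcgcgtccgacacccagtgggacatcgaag
Suz12: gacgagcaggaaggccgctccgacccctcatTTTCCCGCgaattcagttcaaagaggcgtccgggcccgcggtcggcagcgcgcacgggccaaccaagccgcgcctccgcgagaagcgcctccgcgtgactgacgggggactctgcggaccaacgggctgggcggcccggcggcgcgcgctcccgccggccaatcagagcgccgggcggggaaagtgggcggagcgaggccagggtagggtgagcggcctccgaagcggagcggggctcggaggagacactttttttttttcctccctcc
Jarid2, upstream start: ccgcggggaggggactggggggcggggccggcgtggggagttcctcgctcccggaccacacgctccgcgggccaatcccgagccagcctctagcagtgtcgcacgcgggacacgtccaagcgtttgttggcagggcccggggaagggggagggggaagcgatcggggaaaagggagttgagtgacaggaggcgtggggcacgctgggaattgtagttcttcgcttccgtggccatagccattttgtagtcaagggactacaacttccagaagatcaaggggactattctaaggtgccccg
Jarid2, downstream start: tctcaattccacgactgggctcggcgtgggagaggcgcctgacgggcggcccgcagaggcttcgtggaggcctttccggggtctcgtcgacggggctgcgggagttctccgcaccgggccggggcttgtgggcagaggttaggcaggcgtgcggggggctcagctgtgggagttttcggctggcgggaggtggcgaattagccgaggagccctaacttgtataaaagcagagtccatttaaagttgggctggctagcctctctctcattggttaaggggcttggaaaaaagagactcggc
Ezh1: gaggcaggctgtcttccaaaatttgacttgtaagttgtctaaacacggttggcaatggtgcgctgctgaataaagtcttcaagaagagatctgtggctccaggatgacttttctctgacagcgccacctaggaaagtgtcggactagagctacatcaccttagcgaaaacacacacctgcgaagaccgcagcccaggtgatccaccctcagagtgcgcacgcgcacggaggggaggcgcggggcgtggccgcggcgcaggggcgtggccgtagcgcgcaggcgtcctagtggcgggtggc
Ezh2 held TTTGGCGC from base 254 of the stretch, just after the start, Suz12 held TTTCCCGC from base 32, and the stretches of Jarid2 and Ezh1 held none of these words. Among the 10 members 3 had a match, the other being Phf19, which did not pass between the OPC lines, with the reverse complement GCGGGAAA from base 43. A match was found for 2.6% of the 27025 symbols of the table and for 29.4% of the 17 cell division genes. A match describes letters and not binding, and its absence from this window says nothing about the factor.

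**Figure D1:**
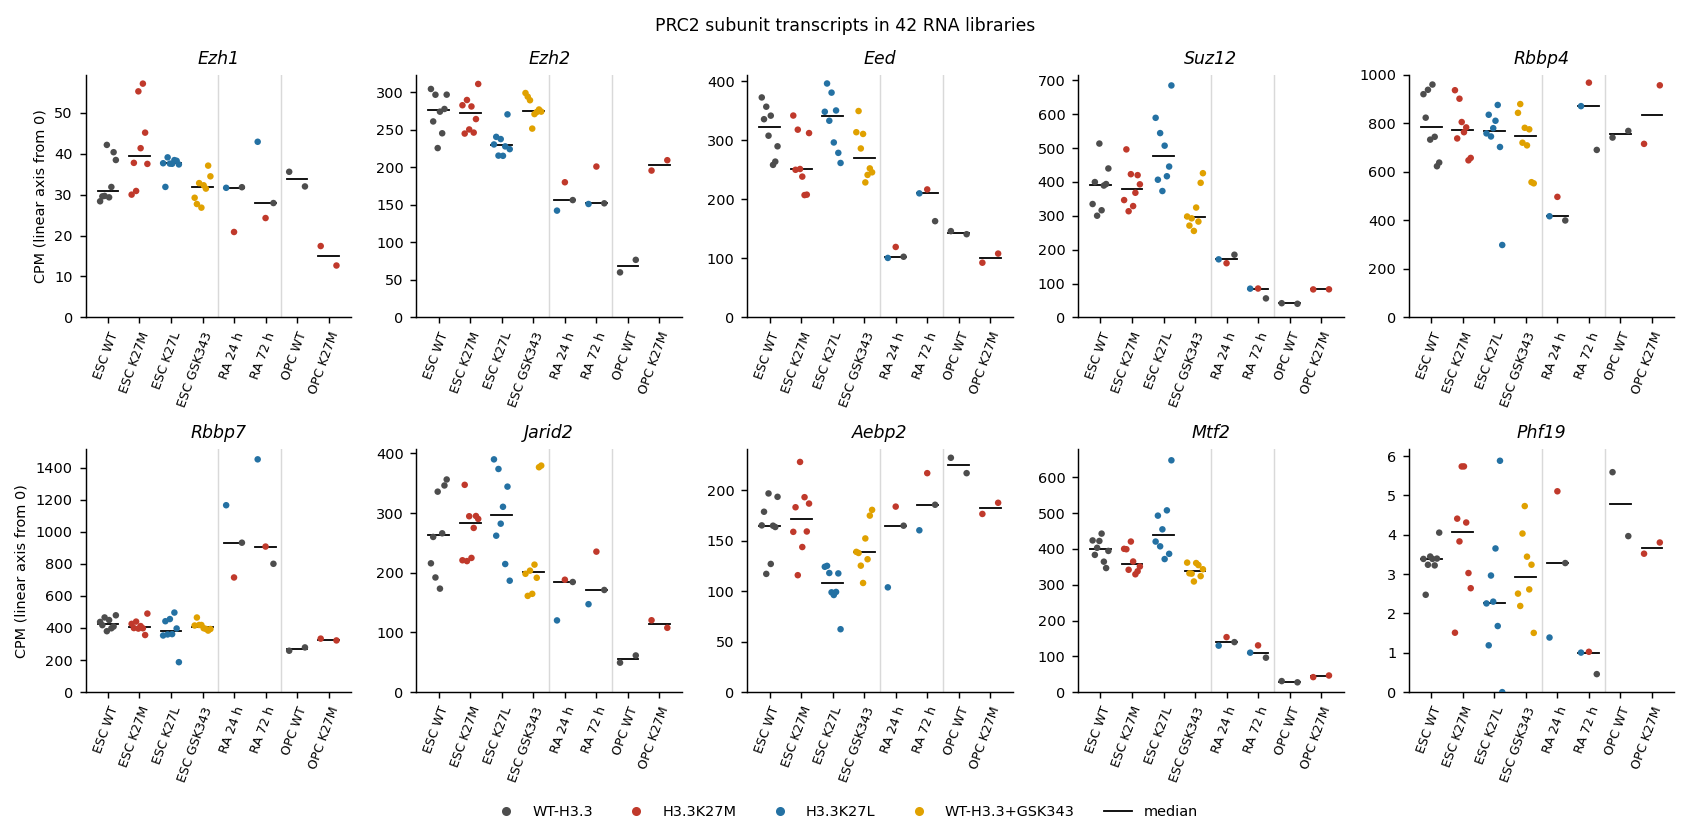
CPM of the 10 PRC2 subunit genes in each of the 42 RNA libraries (linear axes from 0; 1 point per library, colour for line or treatment, bar for the median of the group). ESC groups overlap for most genes, Mtf2 and Suz12 step down from ESCs to RA-treated cells and OPC cultures, and Ezh1 and Ezh2 of the OPC cultures split by line in opposite directions.

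In undifferentiated ESCs no PRC2 gene passed the test under H3.3K27M. None of the 10 passed between H3.3K27M and WT-H3.3 over all Dox times (8 libraries each), where 0.0142% of all genes passed. At an unadjusted p-value under 0.05 there were 2 members and 11.5% of all genes. Ezh2 ran from 245 to 311 CPM (median 273) in H3.3K27M and from 226 to 304 CPM (median 276) in WT-H3.3 cells, a log2 difference of -0.01 ± 0.09 (SE). The groups overlapped almost entirely. Ezh1 ran from 29.98 to 57.1 CPM (median 39.5) against 28.4 to 42.1 CPM (median 30.8). Its log2 difference of 0.30 ± 0.10 did not pass (edgeR adjusted p = 0.269), although it passed without replicate 1 of H3.3K27M at 8 h (0.39, adjusted p = 0.0389). Paired by time and replicate number, Ezh1 was higher in H3.3K27M in 7 of 8 pairs. With the replicate number as a block 34 genes passed in place of 2, but no member did. Eed, the reader of the methyl mark, ran from 207 to 342 CPM (median 251) against 258 to 372 CPM (median 322), and its difference of -0.26 ± 0.11 did not pass either (adjusted p = 0.374). The other 7 members differed by between -0.12 and 0.17 on the log2 scale. At 24 and 72 h alone no member passed, and 0% of all genes did (4.19% at an unadjusted p-value under 0.05). DESeq2 also gave 0 genes, the replicate block 2 and the fit without a filter on low counts 70.

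H3.3K27L ESCs had less Aebp2, a subunit that binds the nucleosome together with JARID2. Aebp2 (chr6:140570970-140626993 on NCBIM37) was at 124 and 125 CPM at 4 h, at 118 and 98.8 at 8 h, at 96.1 and 99.1 at 24 h and at 117 and 62.3 at 72 h in H3.3K27L cells. In WT-H3.3 cells the same pairs were 165 and 178, 117 and 197, 127 and 165, and 163 and 193 CPM. Only 1 WT-H3.3 library, replicate 1 at 8 h, lay within the range of the H3.3K27L libraries. The difference of -0.59 ± 0.12 passed over all times (edgeR adjusted p = 0.00279), and it was the 1 member of 10 that did, in a comparison in which 8.11% of all genes passed (5.19% lower). It was not over 2-fold, and without the ESC libraries of under 2000000 counts it was -0.56 (adjusted p = 0.00918). The median of the genes of chromosome 6, where Aebp2 lies, was -0.13 against -0.01 for all genes, and whether a change of this chromosome has a part in the result was not tested. At 24 and 72 h alone the difference was -0.66 ± 0.18 and did not pass (adjusted p = 0.0911), where 0.732% of all genes did. The late minus the early difference was -0.14 ± 0.24 and did not pass either (0% of all genes did). Suz12 ran from 373 to 685 CPM (median 476) in H3.3K27L and from 300 to 513 CPM (median 391.6) in WT-H3.3 cells, a difference of 0.34 that did not pass (adjusted p = 0.0969). The 685 CPM was that of the library of 68378 counts, and no ESC library of over 2000000 counts exceeded 589 CPM. Ezh2 ran from 215 to 270 CPM (median 229), against the 226 to 304 CPM of WT-H3.3 given above, and its difference of -0.23 did not pass (adjusted p = 0.136). Ezh2 also lies on chromosome 6, whose median was -0.13, and the part of this chromosome in its value was not tested either. Without replicate 2 of WT-H3.3 at 8 h both passed (Ezh2 -0.29, adjusted p = 0.0476, and Suz12 0.43, adjusted p = 0.0237). A replicate block with the H3.3K27L numbers exchanged at 4, 8 and 24 h was chosen after seeing the data. With it Ezh2 (-0.24, edgeR adjusted p = 0.0437) and Suz12 (0.33, adjusted p = 0.031) passed as well.

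GSK343 blocks the enzyme but left no change in the transcripts of its subunits that the test could detect. None of the 10 members passed and none had an unadjusted p-value under 0.05. No gene of the whole table passed either (0%), with 4.41% at an unadjusted p-value under 0.05, 0 genes by DESeq2 and 87 without the filter on low counts. Ezh2, the main target of the inhibitor, ran from 251 to 299 CPM (median 275) under GSK343, a difference of 0.07 ± 0.09. The widest difference was that of Suz12, from 255 to 426 CPM (median 295), at -0.25 ± 0.12 (adjusted p = 0.975). Of the 10 members 9 had a lower fitted level under GSK343, by at most 0.25, and the median of the 10 was -0.14 beside 0.01 for all genes. These differences share the same WT-H3.3 libraries and are not independent, and the share of all genes that were lower was not counted. Within the WT-H3.3 line, no member passed between 72 and 4 h of Dox (0.192% of all genes did). The widest differences over this time were -0.52 ± 0.22 for Rbbp4 (adjusted p = 0.332) and 0.51 ± 0.26 for Jarid2 (adjusted p = 0.39), with 2 libraries a time.

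**Figure D2:**
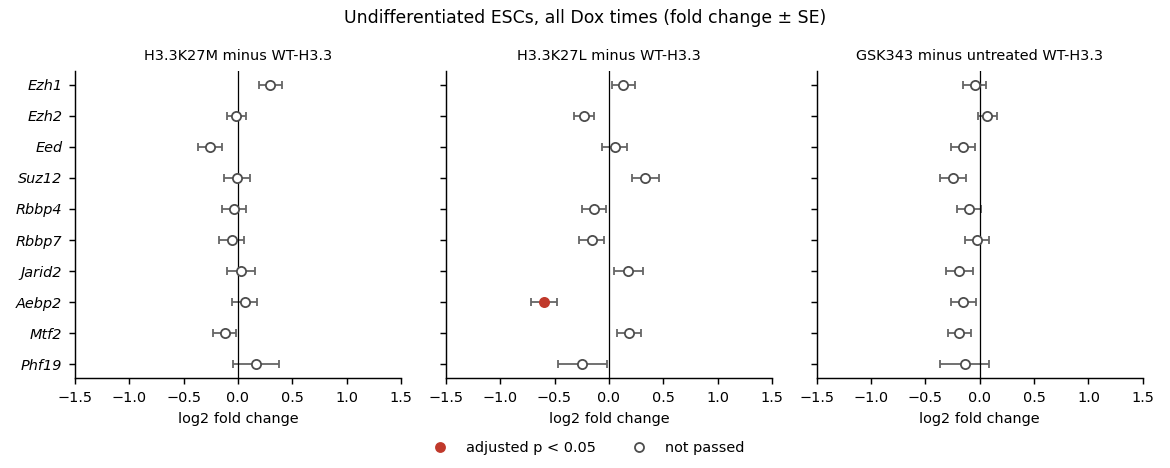
Log2 fold changes of the 10 genes in ESCs over all Dox times (points, bars for SE; filled where the adjusted p-value was under 0.05) for H3.3K27M, H3.3K27L and GSK343 against WT-H3.3. Of the 30 values only Aebp2 in H3.3K27L (-0.59) passed, and the 3 comparisons share the same WT-H3.3 libraries.

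Among the 32 ESC libraries, Ezh2 was the steadiest member and Phf19 the most variable, with SDs of log2 CPM of 0.15 and 0.69. Phf19 was at 0 to 5.88 CPM, so its values rest on few counts. In the 30 deeper libraries Suz12 ran from 271 to 589 CPM, Jarid2 from 161 to 390, Mtf2 from 324 to 508, Rbbp4 from 553 to 960 and Rbbp7 from 353 to 496 CPM.

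With RA treatment 8 of the 10 members fell and Rbbp7 rose, relative to the ESCs of the same 3 lines (6 against 24 libraries). Of all genes 71.8% passed in this comparison, 36.2% higher and 35.6% lower, so the share of members that passed is high where passing was common. The median of the members was -0.81 and that of all genes 0.00. Mtf2, a DNA-binding Polycomb-like subunit prominent in ESCs, fell from 329 to 443 CPM in WT-H3.3 and H3.3K27M ESCs to 140, 154 and 130 CPM at 24 h and 96.1, 131 and 110 CPM at 72 h in RA-treated cells of the WT-H3.3, the H3.3K27M and the H3.3K27L line. No RA library reached the ESC range, and the difference was -1.84 ± 0.11 (edgeR adjusted p = 2.68e-18). This fit, like the others between stages, counted Dox times as replicates. Whether the Dox times came from separate differentiations is not given, so the p-values of these fits may not measure the spread between repeats. Suz12 (chr11:79806608-79847625) was at 185, 160 and 172 CPM at 24 h and at 56.3, 85.4 and 85.1 CPM at 72 h in the same order of lines, all below its lowest ESC value of 255 CPM. As a log2 difference it fell by 1.90 (SE 0.18, edgeR adjusted p = 2.54e-12). Eed fell by 1.18 (SE 0.15), Jarid2 by 0.87 (SE 0.16), Ezh2 by 0.83 (SE 0.08), Phf19 by 0.80 (SE 0.30), Ezh1 by 0.52 (SE 0.11) and Rbbp4 by 0.45 (SE 0.16). Rbbp7 (chrX:159198334-159217024), the histone-binding partner that can stand in for RBBP4, went the other way. It was at 932, 715 and 1166 CPM at 24 h and at 800, 908 and 1452 CPM at 72 h, against at most 496 CPM in any ESC library, a difference of 1.08 ± 0.09 (adjusted p = 3.11e-13). A stretch on the X chromosome, chrX:138645002-138646748, is 96.5% identical to the Rbbp7 transcript over 77.7% of its length, so reads from it and from Rbbp7 may not have been separated. Aebp2 did not pass, with 104 to 217 CPM in RA-treated cells and a difference of 0.04 ± 0.11 (adjusted p = 0.76).

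The smaller of these changes depended on the scaling between stages. With RLE in place of TMM factors the median of all genes moved from 0.00 to 0.27, and 2 members passed as higher and 5 as lower. Aebp2 then passed (0.35), while Ezh1 (-0.22), Rbbp4 (-0.11) and Phf19 (-0.56) did not. The falls of Mtf2, Suz12, Eed, Jarid2 and Ezh2 and the rise of Rbbp7 passed under each scaling.

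The RA-treated cells of 24 and 72 h of Dox differed widely, with 69.4% of all genes passing (33.2% higher and 36.2% lower at 72 h), and 5 members rose and 2 fell. The study's methods call these Dox times similar and pool them. For 72 h of Dox the study describes Dox added 24 h after the onset of RA treatment. How long the libraries of 24 h of Dox were in RA is not given, nor is the kit or preparation of each RA library. A difference of time in RA, kit or preparation thus cannot be told apart from Dox time. Rbbp4 was at 400, 497 and 417 CPM at 24 h and at 691, 968 and 871 CPM at 72 h, in the order of lines used above, a rise of 1.16 ± 0.14 (edgeR adjusted p = 9.88e-06). Eed was at 103, 119 and 101 CPM and then at 163, 217 and 210 CPM, a rise of 1.09 ± 0.13 (adjusted p = 9.56e-06). In both genes all 3 lines moved up and the times did not overlap. Aebp2 rose by 0.57 ± 0.13, Jarid2 by 0.39 ± 0.13 and Rbbp7 by 0.37 ± 0.16 (adjusted p = 0.00199, 0.0187 and 0.0494). Suz12 moved against its core partners and fell by 0.97 (SE 0.16, edgeR adjusted p = 0.000145), with all 3 lines lower at 72 h. Phf19 fell by 1.63 (SE 0.60, adjusted p = 0.0275) from 3.28, 5.11 and 1.39 CPM to 0.458, 1.03 and 1.01 CPM, levels that rest on few reads. Ezh1 and Ezh2 did not pass, at 0.39 ± 0.17 and 0.29 ± 0.13 (adjusted p = 0.0548 and 0.0546), nor did Mtf2 at -0.11 ± 0.13.

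Gene length moved with this comparison of times. The median of all genes was 0.27 for annotated exonic lengths of up to 2990 bases, -0.325 for 2991 to 5158 bases and -0.64 above that, and Eed (2218 bases) and Rbbp7 (2909 bases) are among the short ones. With the length trend of each library removed, an alternative chosen after seeing the data, Rbbp4 (1.72), Eed (0.80) and Suz12 (-0.67) still passed in the same direction. Ezh1 (0.88) and Ezh2 (0.69) then passed as well, and Rbbp7 (adjusted p = 0.0563) and Phf19 (adjusted p = 0.0638) did not. Without either H3.3K27M library 4 members passed, Rbbp7, Jarid2 and Phf19 being lost. Genes of cell division were mixed, 9 higher and 6 lower of 17, with Mki67 at -2.94 and Plk1 at 2.31. The extraembryonic endoderm markers summed to 1078 to 6982 CPM at 24 h and to 639 to 1999 CPM at 72 h, and their part in the changes of the members was not tested.

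Between the RA-treated lines no member passed (2 libraries a line). For H3.3K27M 0.0163% of all genes passed against WT-H3.3, and the widest difference among the better-counted members was that of Ezh1, at 20.9 and 24.3 CPM against 31.8 and 27.9 CPM. Both H3.3K27M libraries were below both WT-H3.3 ones, but the difference of -0.53 ± 0.21 did not pass (edgeR adjusted p = 0.732). For H3.3K27L 7.03% of all genes passed. Aebp2 was at 104 and 160 CPM in the H3.3K27L and at 165 and 185 CPM in the WT-H3.3 cells, a difference of -0.48 ± 0.16 (adjusted p = 0.102). This value stands beside the -0.59 of the ESCs and was not tested against it. Jarid2 was at 120 and 147 CPM against 185 and 171 CPM (-0.46 ± 0.16, adjusted p = 0.119), and Rbbp7 at 1166 and 1452 CPM against 932 and 800 CPM (0.54 ± 0.19, adjusted p = 0.114). In all 3 genes the libraries of both lines did not overlap. With 2 libraries a line such a separation is common, and its share over all genes was not counted. Jarid2 (-0.66) and Aebp2 (-0.60) passed once the WT-H3.3 library of 72 h was left out, and Rbbp7 (0.80) once that of 24 h was. These calls leave a lone WT-H3.3 library, which is assumed to vary like those of the other lines. Beside these, 6 of 7 extraembryonic endoderm markers were higher in H3.3K27L, with sums of 6982 and 1999 CPM against 3546 and 710.5 CPM in WT-H3.3, and 2 of 7 fibroblast markers and 1 of 4 neural progenitor markers were lower. The part of these cells in the values of the members was not tested.

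OPC cultures held less of 7 of the 10 members than the ESCs of the same lines (4 against 16 libraries). Of all genes 82.4% passed, 45.5% lower, and the median of all genes was -0.27, against -1.20 for the members. Mtf2 had the widest difference, at 30.8 and 27.4 CPM in the WT-H3.3 and at 41.9 and 46.4 CPM in the H3.3K27M cultures, and it fell by 3.65 in log2 (SE 0.15, edgeR adjusted p = 2.17e-23). Suz12 was at 42.1 and 40.4 CPM in WT-H3.3 and at 82.8 and 83.1 CPM in H3.3K27M cultures and fell by 2.95 (SE 0.23). Jarid2 fell by 1.99 (SE 0.21), Eed by 1.51 (SE 0.18), Ezh2 by 1.44 (SE 0.11), Ezh1 by 0.97 (SE 0.14) and Rbbp7 by 0.74 (SE 0.13). Rbbp4 (-0.23 ± 0.19), Aebp2 (0.05 ± 0.13) and Phf19 (-0.02 ± 0.31) did not pass. With RLE factors the median of all genes moved to 0.10 and Aebp2 passed as higher (0.42), with 7 members lower as before. These are means of both lines, which differed from each other. In WT-H3.3 libraries alone the OPC minus ESC difference of Ezh1 was -0.24 and did not pass, and that of Ezh2 was -2.24 and passed.

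Against RA-treated cells of the same lines (4 against 4 libraries, 61.1% of all genes passing, 37.3% lower, median -0.28), 5 members were lower in OPC cultures. Mtf2 fell by 1.92 (SE 0.15), Rbbp7 by 1.57 (SE 0.16), Jarid2 by 1.36 (SE 0.23), Suz12 by 1.14 (SE 0.24) and Ezh2 by 0.61 (SE 0.12). The comparison depended on the Dox time of the RA libraries. Against those of 72 h alone Suz12 did not pass (-0.33, edgeR adjusted p = 0.275), whereas Eed (-0.73) and Phf19 (2.49) did, and against those of 24 h alone Rbbp4 passed as higher (0.73).

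The order of the levels separated the members. Mtf2 went from ESCs to RA-treated cells of 24 and then of 72 h, to the H3.3K27M and then to the WT-H3.3 OPC cultures, and only the RA times overlapped. Suz12 followed the same order, and only RA-treated cells of 72 h and H3.3K27M OPC cultures overlapped. Ezh2 was highest in ESCs, and lowest in WT-H3.3 OPC cultures. Between these lay H3.3K27M OPC cultures and RA-treated cells of both times, and those of 72 h overlapped both H3.3K27M OPC cultures (201 against 196 CPM) and RA-treated cells of 24 h. Aebp2 gave no such order, since each neighbour overlapped the next, with WT-H3.3 OPC cultures highest at 232 and 217 CPM.

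**Figure D3:**
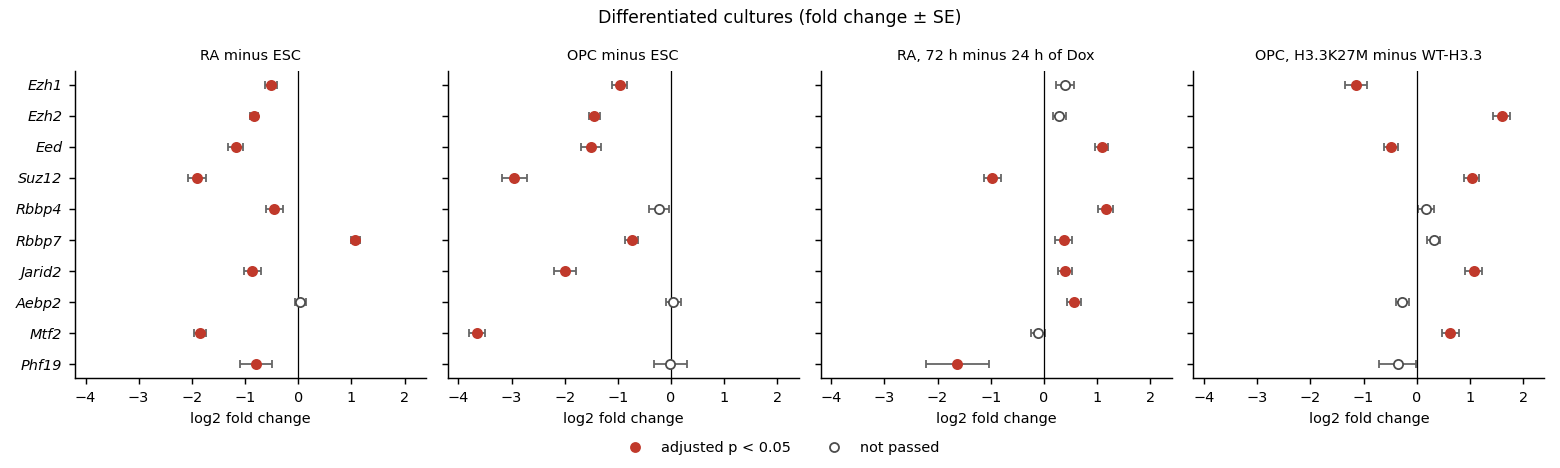
Log2 fold changes of the 10 genes (points, bars for SE; filled where the adjusted p-value was under 0.05) for RA-treated cells and OPC cultures against ESCs, RA-treated cells of 72 against 24 h of Dox, and H3.3K27M against WT-H3.3 OPC cultures. Mtf2 and Suz12 have the lowest values against ESCs (-1.84 and -1.90 with RA, -3.65 and -2.95 in OPC cultures), and Ezh1 and Ezh2 lie on opposite sides in the OPC lines (-1.14 and 1.60).

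In OPC cultures the PRC2 genes differed between the lines, with Ezh2 higher and Ezh1 lower in H3.3K27M (2 libraries a line, 1 at each Dox time). Of all genes 51.5% passed, 25% higher and 26.5% lower, so a difference between the lines was common to the whole transcriptome. Of the members 4 were higher and 2 lower. Ezh2 (chr6:47480273-47545340) was at 60.0 and 76.7 CPM in WT-H3.3 and at 196 and 209 CPM in H3.3K27M cultures at 24 and 72 h, and the lines were far apart. The difference was 1.60 ± 0.15 (edgeR adjusted p = 1.07e-05). Ezh1 (chr11:101052429-101087777) was at 35.6 and 31.98 CPM in WT-H3.3 and at 17.4 and 12.7 CPM in H3.3K27M cultures, again with no overlap. It was lower by -1.14 ± 0.21 (adjusted p = 0.000953). Of the core partners, Suz12 was higher in H3.3K27M by 1.04 ± 0.14 (adjusted p = 0.000132). Eed was at 146 and 141 CPM in WT-H3.3 and at 92.7 and 108 CPM in H3.3K27M cultures, a difference of -0.49 ± 0.13 (adjusted p = 0.0103). Of the accessory subunits, Jarid2 was at 49.4 and 61.5 CPM in WT-H3.3 and at 120 and 108 CPM in H3.3K27M cultures, higher by 1.07 ± 0.16 (adjusted p = 0.000235). Mtf2 was higher by 0.63 ± 0.16 (adjusted p = 0.00761). Rbbp7 (0.32, adjusted p = 0.0528), Aebp2 (-0.27, adjusted p = 0.0859), Rbbp4 (0.17, adjusted p = 0.353) and Phf19 (-0.36, adjusted p = 0.416) did not pass. With Dox time as a block, Rbbp7 (adjusted p = 0.00777) and Aebp2 (adjusted p = 0.03) passed too. The sample titles give the 24 h libraries the replicate number 2 and the 72 h libraries the number 1, whereas the count columns give all 4 the number 2, so Dox time and replicate may or may not coincide here. Leaving out the H3.3K27M library of 24 h lost Eed (adjusted p = 0.0637), and leaving out that of WT-H3.3 at 72 h lost Mtf2 (adjusted p = 0.0506).

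The make-up of the OPC cultures moved with the same comparison. All 17 genes of cell division were higher in H3.3K27M (25% of all genes were), with a median of 1.61. Among them were Top2a, a topoisomerase of dividing cells, at 2.27, Cdc6, a factor of replication licensing, at 1.96, and the mitotic cyclin Ccnb1 at 1.81. Their summed level was 1438 and 1707 CPM in the WT-H3.3 and 4677 and 4779 CPM in the H3.3K27M cultures, against 4433 to 6406 CPM in ESCs. Of 8 fibroblast markers 7 were lower in H3.3K27M, with sums of 719 and 787 CPM against 56.0 and 61.8 CPM. All 6 extraembryonic endoderm markers tested were lower (147 and 197 against 20.3 and 25.1 CPM, Afp at 0 in H3.3K27M). Of the 8 listed, 5 were under 1 CPM in H3.3K27M and 0 in WT-H3.3 cultures. Such markers could be tested only through the WT-H3.3 libraries, so the filter on low counts set their direction. OPC markers were split, 4 higher and 2 lower, neuron markers 3 and 3, and astrocyte markers 2 and 4. The ESC markers Pou5f1, Dppa5a and Tdgf1 were at 0 in all 4 libraries. The part of cell division and of these cell types in the differences of the members was not tested, and with 1 line of each kind the histone and the culture cannot be told apart.

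The ratio of Ezh1 to Ezh2 counts, which does not depend on scaling between libraries, split by line in OPC cultures. For each 100 Ezh2 counts there were 9.33 to 23.2 Ezh1 counts in the 32 ESC libraries, with medians of 12.2 in WT-H3.3, 15.1 in H3.3K27M, 16.6 in H3.3K27L and 11.4 under GSK343. RA-treated cells of 24 and 72 h had 20.4 and 18.5 in WT-H3.3, 11.6 and 12.1 in H3.3K27M and 22.3 and 28.5 in H3.3K27L. OPC cultures had 59.3 and 41.7 in WT-H3.3 and 8.95 and 6.09 in H3.3K27M, so the former lay above and the latter below every ESC library. Over both lines the mean log2 ratio of OPC cultures exceeded that of ESCs by 0.49 (two-sided exact permutation p = 0.256, adjusted over 3 comparisons 0.384), and RA-treated cells of 3 lines exceeded ESCs by 0.31 (exact permutation p = 0.0895, adjusted 0.268). OPC cultures against RA-treated cells gave 0.34 (exact permutation p = 0.686), where the smallest p this design allows is 0.0286. In WT-H3.3 libraries alone the ratio of OPC cultures was higher than in ESCs by 2.02 (exact permutation p = 0.0222, the smallest that 2 against 8 libraries can give) and that of RA-treated cells by 0.66 (exact permutation p = 0.0444). Both OPC libraries lay above every WT-H3.3 ESC library, and of the RA libraries 1 did and 1 lay within their range. The permutations counted Dox times as replicates, and whether these came from separate differentiations is not given. Those of WT-H3.3 libraries alone were not adjusted for the number of comparisons.

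**Figure D4:**
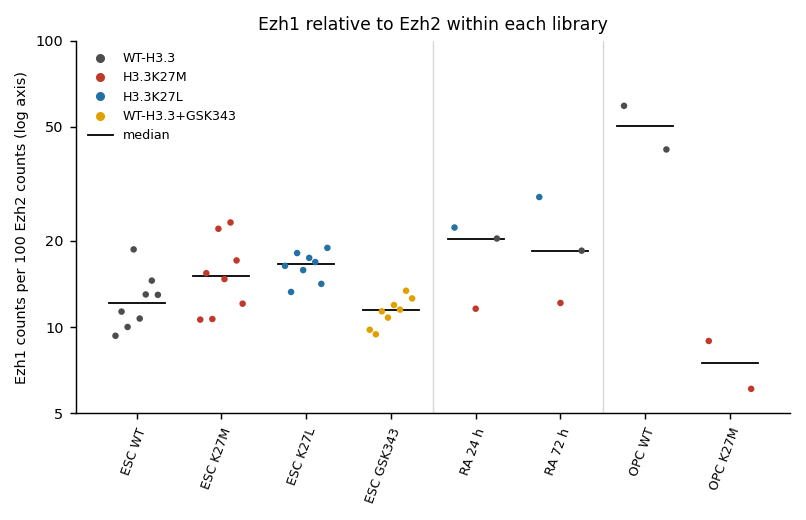
Ezh1 counts per 100 Ezh2 counts in each library (log axis; 1 point per library, colour for line or treatment, bar for the median). ESC libraries lie between 9.33 and 23.2, the WT-H3.3 OPC cultures at 41.7 and 59.3 and the H3.3K27M OPC cultures at 6.09 and 8.95.

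Other genes of the complex also moved between stages. The 5 followed were Phf1, the Polycomb-like relative of Mtf2, Epop, Lcor and Lcorl, which encode alternative partners of the core, and Ezhip, an inhibitor of PRC2. Epop fell by 1.44 (SE 0.22) with RA, from 280 to 569 CPM in WT-H3.3 and H3.3K27M ESCs to 120 to 156 CPM in RA-treated cells of these lines. The fold is over 3 lines, and H3.3K27L was at 349 and 286 CPM with RA. In ESCs of this line Epop ran from 381 to 849 CPM, leaving out the library of 68378 counts (37.4 CPM). In OPC cultures it was at 5.20 to 18.5 CPM and fell by 5.46 (SE 0.36) from ESCs. Phf1 rose by 0.87 ± 0.15 with RA and by 1.89 ± 0.16 in OPC cultures, and Lcorl by 1.09 ± 0.17 and 2.41 ± 0.19. Lcor did not pass with RA (-0.06 ± 0.20, edgeR adjusted p = 0.822) and fell by 1.24 (SE 0.27) in OPC cultures. Thus the Polycomb-like genes Mtf2 and Phf1 moved in opposite directions between ESCs and OPC cultures. Between the OPC lines, Epop was lower in H3.3K27M by -0.97 ± 0.33 (adjusted p = 0.0295), while Phf1, Lcor and Lcorl did not pass and Ezhip had too few counts to be tested.

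Ezhip was scarce, at up to 4.48 CPM in ESCs. It was at 4.92, 3.21 and 1.80 CPM at 24 h and at 26.1, 21.5 and 4.36 CPM at 72 h in RA-treated cells, again in the order WT-H3.3, K27M and K27L. It rose by 2.57 ± 0.32 between these times (edgeR adjusted p = 1.42e-05) and by 2.18 ± 0.32 over ESCs. H3.3K27L had less of it than WT-H3.3 in RA-treated cells (-2.10 ± 0.43, adjusted p = 0.0142) and in ESCs (-1.75 ± 0.38, adjusted p = 0.00548), where no H3.3K27L library exceeded 1.19 CPM and WT-H3.3 libraries ran from 1.16 to 4.48 CPM. In RA-treated H3.3K27L cells Epop was at 349 and 286 CPM against 156 and 139 CPM in WT-H3.3, higher by 1.07 ± 0.17 (adjusted p = 0.00452). In ESCs it was not (0.31 ± 0.19, adjusted p = 0.338), and the 2 differences were not tested against each other. Between H3.3K27M or GSK343 and WT-H3.3 ESCs none of these 5 genes passed.

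Transcription factor genes known as PRC2 targets were followed beside the complex, from a list of 30. In ESCs 15 of them were tested. None passed with H3.3K27M (median -0.37, all genes -0.01), where Cdx2, a trophectoderm and caudal regulator, had the lowest adjusted p-value (-1.497 ± 0.40, edgeR adjusted p = 0.162), and none passed with GSK343. With H3.3K27L 1 of the 15 passed, Olig2 at 0.72 ± 0.17 (edgeR adjusted p = 0.00768), where 8.11% of all genes passed. Between stages 27 were tested, since the filter on low counts there ran over all 42 libraries. In ESCs 11 of the listed genes were under 1 CPM, Nkx6-1 and Nkx2-2 among them. Such genes could be tested only through RA or OPC libraries, so the filter set the direction of their change. In RA-treated cells 19 of 27 rose over ESCs and 4 fell (36.2% and 35.6% of all genes). The 3 of lowest adjusted p-value were the endoderm factor Gata6 (8.47), Hoxa5 (8.15) and the endoderm factor Sox17 (7.17). In OPC cultures 17 of 27 rose and 8 fell (36.9% and 45.5% of all genes), led by the ventral neural tube and oligodendrocyte factors Nkx6-1 (11.70), Nkx2-2 (9.53) and Olig2 (4.72). Between the OPC lines 6 of 19 were higher and 10 lower in H3.3K27M (25% and 26.5% of all genes), with Olig2 at 1.73, Foxa2 at -2.49 and Tbx3 at -4.97. Of the genes of cell division 14 of 17 fell with RA (2 rose, median -1.01) and 15 of 17 in OPC cultures (2 rose, median -2.07), where 35.6% and 45.5% of all genes fell.

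Over the 42 libraries the genes whose log2(CPM + 1) was most like that of Ezh2 were Cdca7, Cdc45 and Chek1 (Pearson r = 0.936, 0.927 and 0.917), among the 8950 genes whose mean reached 10 CPM. Those most like Ezh1 were Abcc1, Klf4 and Kazn (0.82, 0.811 and 0.787). Among the members themselves Suz12 and Mtf2 were most alike (0.94) and Aebp2 and Mtf2 least (-0.479). Groups of these libraries share stage and line, and which of them share a kit is not given. The coefficients are thus descriptions of the whole set and rest largely on the differences between stages.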

How the data were processed

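The authors aligned reads with STAR 2.7.1 to mm9 (up to 10 mismatches) and deposited raw gene counts of 42 RNA libraries; the counting tool, annotation and strand setting are not given in the sources used here. Depth ran from 68378 to 22269533 counts per library, and no 2 libraries were copies. ChIP-seq data were not used here. Positions and lengths came from the NCBIM37 annotation, which matched 32589 of 55471 genes (98.2% of counts). Genes of chromosome 8 (1435 by annotation, 5.78% of counts) were left out as in the study's methods. Counting without strand would mix reads of genes that overlap on opposite strands, which touches exons of Ezh2 (2.81% of exonic bases), Suz12 (3.60%), Rbbp4 (9.10%), Rbbp7 (5.98%) and Mtf2 (7.51%).

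Counts were tested with edgeR 4.0.16 (TMM, filterByExpr, quasi-likelihood F test, Benjamini-Hochberg over 14076 genes in ESCs, 12265 in RA-treated cells, 12511 in OPCs and 16478 between stages), with a mean per line and Dox time in ESCs, line and Dox time in RA-treated cells, line in OPCs, and a mean per stage and line between stages. SE is the log2 fold change divided by the square root of F. Ratios used counts plus 0.5 and exact permutation over libraries. Scripts were tested on simulated data. Alternatives used DESeq2 1.42.0, RLE factors, no filter, chromosome 8, a 2-fold threshold, fewer libraries, replicate blocks and gene-length offsets (limma 3.58.1, R 4.3.3). Minimap2 2.31 searched for copies of the members at 95% identity over 30% of a transcript. Tables and plots were made in Python 3.11.15 (pandas 2.3.3, NumPy 2.4.6, Matplotlib 3.10.9, SciPy 1.17.1).

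Per the study's methods, biological replicates were made weeks apart. The labels do not tie a replicate number to a date. The replicate numbers paired WT-H3.3 with H3.3K27M ESCs, whose replicate differences correlated at 0.604 to 0.711 over 8506 genes. All 10 members and 5 other PRC2 genes were named in every comparison where tested; of the other lists the counts and the 3 genes of lowest adjusted p-value, or fewer, were named, and for likeness the 3 genes of highest correlation. Members and lists were chosen with earlier results of these data known.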

Additional observations from a re-analysis of the deposited data

Results flagged for a closer look

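Of 66 groups of 4 to 10 libraries checked, 5 had a library far from the rest, and chance gives about 1 in 20. In replicate 2 of H3.3K27L ESCs at 72 h, with 68378 counts in all, Rbbp4 was at 298.8 CPM (24 counts; the other 7 libraries 702.9 to 876.2), Rbbp7 at 186.8 CPM (15 counts; 353.2 to 496.1) and Aebp2 at 62.26 CPM (5 counts; 96.1 to 124.9). Ezh1 was at 31.86 CPM in replicate 2 of H3.3K27L at 4 h (others 37.35 to 39.08), and Rbbp7 at 465.3 CPM in replicate 2 of GSK343 at 4 h (others 383.8 to 418.7).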

How the results depend on the processing

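No member with a call changed sign under any alternative. Of 1340 values of single members under settings other than leaving out a library, 20 lost and 22 gained the threshold, and of 2000 values with 1 library left out, 18 lost and 14 gained it. The count of members past the threshold moved by over 1.5 times, or from or to 0, as follows. With a 2-fold threshold it was 0 for H3.3K27L ESCs over all times, 3 for RA-treated cells of 72 against 24 h and 4 for RA-treated cells against ESCs. For H3.3K27L ESCs at 24 and 72 h it was 1 (Aebp2) with DESeq2, without the filter on low counts, with the gene-length trend removed and with crossed replicate numbers, and for H3.3K27L RA-treated cells 1 (Rbbp7) without the filter. Leaving out 1 library gave 0 to 1 for H3.3K27M ESCs, 1 to 3 for H3.3K27L ESCs, 0 to 2 for H3.3K27L RA-treated cells, 4 to 8 between RA times, 5 to 6 between OPC lines, 8 to 9 for RA-treated cells against ESCs, 7 for OPCs against ESCs, 5 to 7 for OPCs against RA-treated cells, and 0 in the others. With WT-H3.3 libraries only the log2 ratio of Ezh1 to Ezh2 differed from ESCs by 0.66 in RA-treated cells (exact permutation p = 0.0444) and by 2.02 in OPCs (p = 0.0222). Smaller moves under the remaining settings put 5 to 9 members between RA times (7 in the report), 6 to 9 for RA-treated cells against ESCs (9), 4 to 8 between OPC lines (6), 5 to 8 for OPCs against ESCs (7) and 4 to 6 for OPCs against RA-treated cells (5). The cause of these changes was not tested.

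The replicate block left 0 members for H3.3K27M, 1 for H3.3K27L and 0 for GSK343 over all times, the calls without it. Replicate differences of H3.3K27L ran against those of WT-H3.3 at 4, 8 and 24 h (correlations -0.594, -0.706 and -0.673). The crossed replicate block, chosen after seeing the data, passed 3 members over all times (Aebp2, Ezh2 and Suz12) and 1 at 24 and 72 h (Aebp2). Between GSK343 and WT-H3.3 the correlations ran from -0.459 to 0.587. The block by Dox time in OPCs passed 8 members.

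Over all genes, the count past the threshold moved by over 1.5 times as follows. For H3.3K27M ESCs the 2 became 11 with the gene-length trend removed, 12 with DESeq2, 34 with the replicate block, 431 without the filter, and 0 with the compared libraries alone or without the shallow ones; at 24 and 72 h the 0 became 2 with the block and 70 without the filter. For H3.3K27M RA-treated cells the 2 became 12 with the length trend removed, 28 with DESeq2 and 130 without the filter. For H3.3K27L ESCs the 1142 genes became 2109 with the crossed block, and at 24 and 72 h the 103 became 17 with the compared libraries alone, 202 with the replicate block, 371 with the crossed block and 404 without the filter. Between 72 and 4 h of WT-H3.3 the 27 became 0 with the compared libraries alone, 42 with the block, 43 with DESeq2 and 237 without the filter, and without the filter GSK343 had 87 in place of 0 (2 with the length trend removed). Against RA libraries of 72 h alone OPCs had 6244 in place of 10073. Pooling the RA times left 0 genes for both mutants, of 862 for H3.3K27L. Phf19, and every member in the library of 68378 counts, are limited by depth.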
